A study of Mus musculus with 3 samples.

Results

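The set described here is 10 genes of the G1 phase control system of the cell cycle, chosen by name and by their role: the D-type cyclins Ccnd2 and Ccnd3, the E-type cyclins Ccne1 and Ccne2, the kinases Cdk4 and Cdk6, the inhibitors Cdkn1a (p21), Cdkn1b (p27) and Cdkn2c (p18), and the pocket protein gene Rb1. All 10 were found, each as 1 of the 50600 genes in the deposited tables. RNA came from primary mouse T-helper 1 (Th1) cells of 1 group, strain C57BL/6NJ. The 3 biological replicates have a biosample record each and share a donor record; age and sex are not known, no treatment is named, and the file headers carry a 16 hour tag that the labels do not. There was no second condition, so the genes were compared with each other inside a library, and each difference was judged by its spread over the 3 libraries. Nothing in the labels says whether the replicates came from separate cultures or animals. The counts of Xist and of Y-linked genes, given below, differed between them. Replicate 2 had 1110 counts of Xist and 0 of the Y-linked genes, and replicate 3 had 4 and 215.

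In a resting cell the retinoblastoma protein, the product of Rb1, binds E2F transcription factors and keeps the genes of DNA replication silent. When a T cell is activated, D-type cyclins accumulate and bind Cdk4 or Cdk6, and these kinases begin to phosphorylate the retinoblastoma protein. Freed E2F factors switch on the E-type cyclins, which complete the phosphorylation with Cdk2. INK4 inhibitors such as p18 bind Cdk4 and Cdk6 directly, while p21 and p27 bind whole cyclin and kinase complexes; loss of p27 in naive T cells is a textbook step of their exit from rest.

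The libraries held 4764598, 2568928 and 2815439 gene counts in replicates 1, 2 and 3. Levels are in TPM, which scales each gene's counts by its length and by the library, computed from the deposited count and the exon length of each gene, so that levels of different genes can be compared; 1 TPM stood for 2.25, 1.28 and 1.59 counts per kilobase. Genes whose exons overlap exons of a gene on the other strand held 56.1%, 60.3% and 71.6% of the counts, replicate 3 having the highest share. The T cell markers Cd3e, Cd3g, Cd4, Trac and Cd5 were all present, with a summed level of 528 to 1093 TPM, whereas the Th1 markers Tbx21, Ifng and Cxcr3 summed to 0.699 to 3.15 TPM. Of 8 markers of other cell types, 6 had 0 counts in every library and none reached 1 TPM in all of them, Cd79a, a B cell gene, having 27, 0 and 17 counts. Xist, expressed from the inactive X chromosome, had 807, 1110 and 4 counts, and 4 Y-linked genes together had 395, 0 and 215, although the donor record is shared. The part of these library differences in the values below was not tested; results without each library are in the closing section.

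Several members are paralogs, so the coding sequences of their main transcripts (GENCODE vM21, GRCm38) were searched for the longest exact run that both share. The pairs below are shown because the ratios between these paralogs rest on counting them apart, and they show how short the shared runs are. Capitals mark the shared run, and lower case the bases beside it, up to 15 on each side. The D cyclins share 14 bases, positions 1 to 14 of both coding sequences, on chromosome 6 (127150745 to 127150773, minus strand) and chromosome 17 (47593655 to 47593683, plus strand).
Ccnd2: ATGGAGCTGCTGTGctgcgaggtggaccc
Ccnd3: ATGGAGCTGCTGTGttgcgagggcacccg
The E cyclins share 18 bases, positions 595 to 612 of Ccne1 and 592 to 609 of Ccne2. With the bases beside them, the stretches shown cross coding exons joined by splicing.
Ccne1: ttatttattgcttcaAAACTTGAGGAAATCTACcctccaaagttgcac
Ccne2: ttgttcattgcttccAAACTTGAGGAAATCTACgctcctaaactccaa
The kinases share 20 bases, positions 463 to 482 of Cdk4 (window on chromosome 10, 127064928 to 127064977, plus strand) and 478 to 497 of Cdk6 (window on chromosome 5, 3429084 to 3429133, plus strand), in the part that encodes the start of the kinase activation segment.
Cdk4: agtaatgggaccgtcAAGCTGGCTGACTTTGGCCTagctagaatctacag
Cdk6: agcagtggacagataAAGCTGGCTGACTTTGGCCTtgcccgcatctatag
The coding sequences of Cdkn1a and Cdkn1b share no run over 10 bases. Near-identical copies elsewhere (at least 95% identity over at least 100 bases on the same strand) were found for Ccnd3 (the pseudogene Ccnd3-ps, 96.3% over 881 bases) and for Cdk6 (Gm16505 and Gm42961). These 3 genes had 0 counts in every library. The sources used here do not give how reads that fit several genes were counted.

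The members spanned over 2 orders of magnitude, from Cdk4 at 353 TPM ± 19.8 (SD, n = 3) to Cdkn2c at 1.05 TPM ± 0.974 (0.497 without replicate 1). Detected here means that none of the 3 libraries was below 1 TPM. On this rule 9 of the 10 members were detected, the exception being Cdkn2c, against 39.8% of all 21764 coding genes. Cdk4, Ccnd2 and Ccne2 together made up 86.9% ± 1.52 of the summed TPM of the 10 genes, and Cdk4 alone 58.5% ± 3.56. The median member stood at 15.7 TPM, and the median coding gene at 0.378 TPM.

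**Figure D1:**
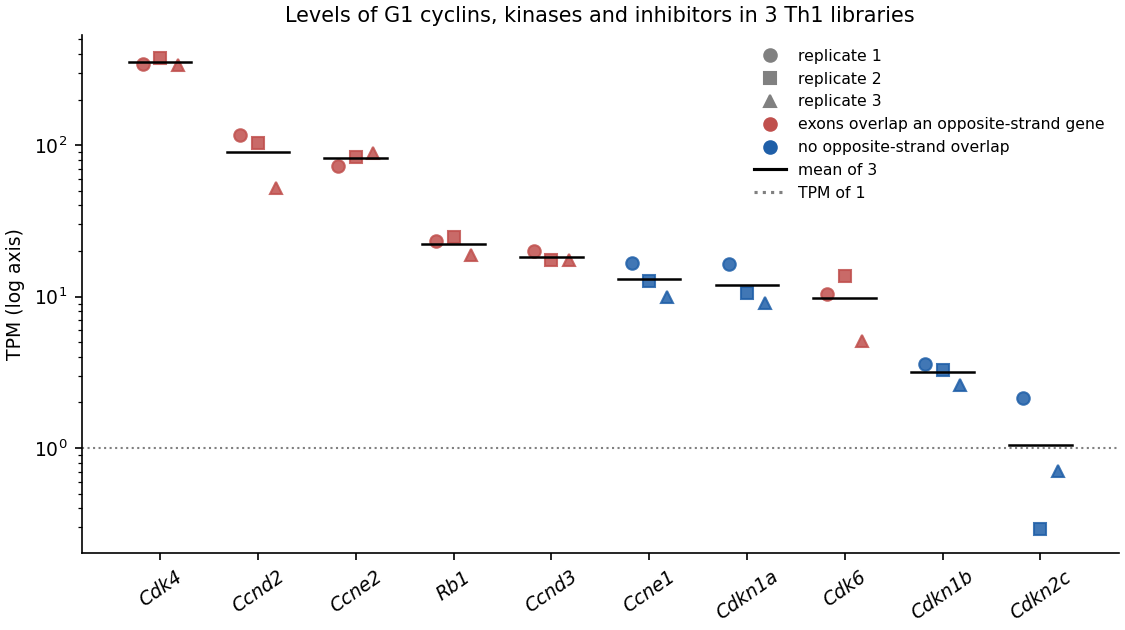
TPM of each member on a log axis, with 1 symbol per library and a line at the mean of 3; red marks members whose exons overlap a gene of the opposite strand, blue those without. Cdk4 lies above 300 TPM in every library, and Cdkn2c is the only member with libraries under 1 TPM.

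Exon overlap with a gene of the opposite strand was found for 6 of the 10 members (Ccnd2, Ccnd3, Ccne2, Cdk4, Cdk6 and Rb1), against 22.1% of all coding genes. The other 4 (Ccne1, Cdkn1a, Cdkn1b and Cdkn2c) lie free of any gene body on the other strand over all their exons, and are called clear below. The median was 52.1 TPM for the overlapped members and 7.58 TPM for the clear ones, although Cdk6, an overlapped gene, lay below the clear genes Ccne1 and Cdkn1a in mean TPM. Over all coding genes it was 6.51 TPM for overlapped and 0.0528 TPM for clear genes, of which 62.3% and 33.6% were detected. No member's exons overlapped those of a gene on its own strand. Clear genes of all kinds held 31.1%, 28.3% and 17.95% of the TPM in replicates 1, 2 and 3. Whether the library kit keeps the strand is not stated in the labels, and the tables hold 1 number per gene. Counts of a member and of its opposite-strand gene therefore cannot be told apart by position, nor is it shown that counts lie on a gene's own strand, which bears on every level below. The part of the overlap in the members' levels was not tested.

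Among the D cyclins, which sense mitogens and start the G1 program, Ccnd2 was higher than Ccnd3. Ccnd2, on the minus strand of chromosome 6 from 127125162 to 127152193 (mm10), had 2466, 1239 and 782 counts, or 116, 103 and 52.3 TPM in replicates 1, 2 and 3. Ccnd3, on the plus strand of chromosome 17 from 47505051 to 47599691, had 396, 196 and 242 counts, or 20.02, 17.5 and 17.3 TPM. The groups of values did not overlap, although Ccnd2 in replicate 3 lay far below its other libraries, while Ccnd3 was nearly level. The ratio of Ccnd2 to Ccnd3 was 5.81, 5.90 and 3.01, a mean log2 ratio of 2.23 ± 0.55 (SD, n = 3). It was above 0 in 3 of 3 libraries, with p = 0.25 in the two-sided exact sign-flip permutation test, the smallest that 3 libraries allow (Benjamini-Hochberg adjusted p = 0.292 over 7 ratios). The size depends on the length used: the gene model of Ccnd3 in the tables has 8775 exon bases but its main transcript 1999, against 9409 and 6330 for Ccnd2. With main transcript lengths the log2 ratio was 0.67 ± 0.55, and 0.03 in replicate 3.

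The last exon of Ccnd2 is crossed by Gm43126, a gene annotated as antisense with 429 exon bases, of which 372 (86.7%) lie in Ccnd2 beyond its coding sequence, in the 3' untranslated region (127125784 to 127126155). Gm43126 had 5094, 3276 and 4409 counts, more than Ccnd2 itself in each library, and 5267, 5986 and 6464 TPM. Per kilobase it exceeded Ccnd2 by 45.3, 58.0 and 124 times, a mean log2 ratio of 6.10 ± 0.75 (SD, n = 3). Such an excess is not limited to Ccnd2. Among 165 noncoding genes with 80% or more of their exon bases covered by 1 coding gene of the other strand, 126 (76.4%) were higher per kilobase than the coding gene in every library. The median excess was 27.6-fold over the summed libraries, and 38 pairs had a larger one than the 62.5-fold of Gm43126 over Ccnd2. The other antisense gene at Ccnd2, 9330179D12Rik, overlaps 368 bases of exon outside the coding sequence and had 26, 14 and 20 counts, below Ccnd2 in each library.

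Bysl, a ribosome biogenesis gene, meets the 3' end of Ccnd3 tail to tail and shares 361 bases with its 3' untranslated region (47599331 to 47599691). Bysl had 296, 307 and 279 TPM, and its log2 ratio to Ccnd3 was 4.01 ± 0.12 (SD, n = 3), the steadiest of the 8 overlapping pairs.

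**Figure D2:**
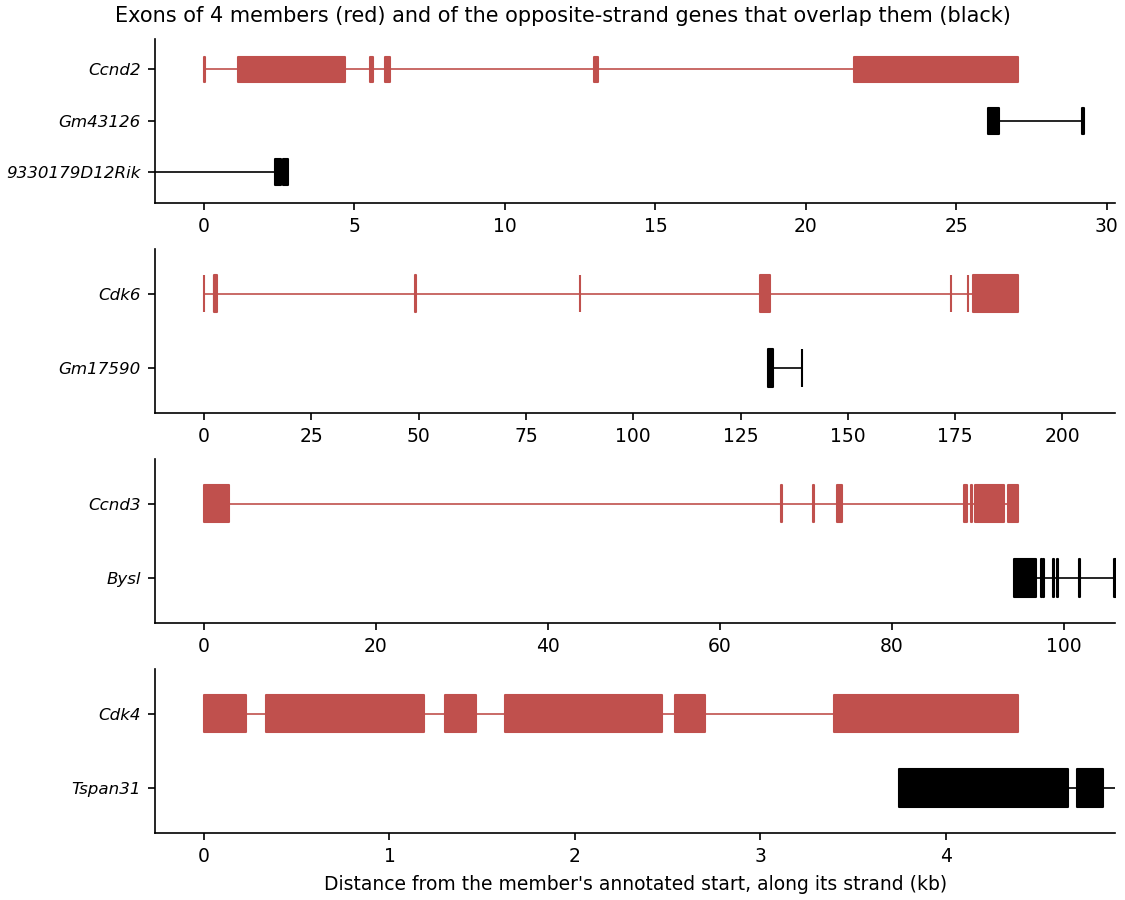
Exons (boxes) of Ccnd2, Cdk6, Ccnd3 and Cdk4 in red and of the opposite-strand genes that overlap them in black, by distance in kb from the annotated start along the member's strand; genes that run past the frame are cut off. Gm43126 lies on the last exon of Ccnd2, and Bysl and Tspan31 end inside the last exons of Ccnd3 and Cdk4.

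The E cyclins, which drive entry into S phase, were unequal in the other sense, with the second paralog higher. Ccne1, a clear gene on the minus strand of chromosome 7 from 38097984 to 38107534, had 100, 43 and 42 counts, or 16.7, 12.7 and 9.92 TPM. Ccne2, on the plus strand of chromosome 4 from 11191351 to 11204779, had 576, 371 and 497 counts, or 73.1, 83.2 and 89.4 TPM. The values did not overlap. In TPM the libraries with more Ccne1 had less Ccne2. On the TMM scale described below this order held only in part. Ccne1 there had 7.09, 5.95 and 6.58 FPKM, and Ccne2 31.1, 39.1 and 59.3. Ccne2 exceeded Ccne1 by 4.39, 6.57 and 9.01 times. The mean log2 ratio of Ccne1 to Ccne2 was -2.67 ± 0.52 (SD, n = 3; below 0 in 3 of 3 libraries, exact sign-flip permutation p = 0.25, adjusted p = 0.292). This ratio sets a clear gene against an overlapped one. Ints8, a subunit gene of the Integrator complex, overlaps 609 bases of Ccne2 exons, 135 of them coding, which is 17.4% of the Ccne2 exon length. Ints8 had 31.05, 48.5 and 17.6 TPM, below Ccne2 in each library and lowest in replicate 3, where Ccne2 was highest.

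Summed over the paralogs, D cyclins had 136, 121 and 69.6 TPM and E cyclins 89.8, 95.9 and 99.4 TPM. The D cyclins were higher in replicates 1 and 2 and lower in replicate 3. The mean log2 ratio of D to E cyclins was 0.14 ± 0.58 (SD, n = 3; exact sign-flip permutation p = 0.75, adjusted p = 0.75), a difference smaller than its spread. Without replicate 1 its sign turned, to -0.09, and with main transcript lengths it was 0.86 ± 0.46 and above 0 in 3 of 3 libraries.

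Cdk4 was the most abundant member and far above Cdk6, the kinase with the same cyclin partners. Cdk4, on the plus strand of chromosome 10 from 127063534 to 127067920, had 2531, 1555 and 1744 counts, or 346, 375 and 338 TPM, so that its highest library was 1.11 times its lowest. By mean TPM it ranked 200 among coding genes, above 99.1% of them. Cdk6, on the plus strand of chromosome 5 from 3341485 to 3531008, had 327, 245 and 114 counts, or 10.4, 13.7 and 5.13 TPM. Its libraries differed by 2.68 times, and replicate 3 was lowest, as for Ccnd2. The ratio of Cdk4 to Cdk6 was 33.3, 27.3 and 65.9, a mean log2 ratio of 5.29 ± 0.67 (SD, n = 3; above 0 in 3 of 3 libraries, exact sign-flip permutation p = 0.25, adjusted p = 0.292). The tables give Cdk6 13989 exon bases, 5.66 times its main transcript of 2470. With main transcript lengths the log2 ratio was 3.45 ± 0.67, and in raw counts with no scaling it was 3.18.

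Tspan31, a tetraspanin gene, meets Cdk4 tail to tail and overlaps 641 bases of its 3' untranslated region (127067280 to 127067920), 19.7% of the Cdk4 exon length and the longest overlap of the set. Tspan31 had 52.2, 44.3 and 34.7 TPM, and Cdk4 exceeded it by 6.62, 8.46 and 9.73 times. Cdk6 stood the other way round to its opposite gene. Gm17590, an antisense gene with 368 bases in Cdk6 exons (3472861 to 3473228), 110 of them coding, had 134, 137 and 163 TPM, or 12.9, 10.01 and 31.9 times Cdk6 per kilobase.

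**Figure D3:**
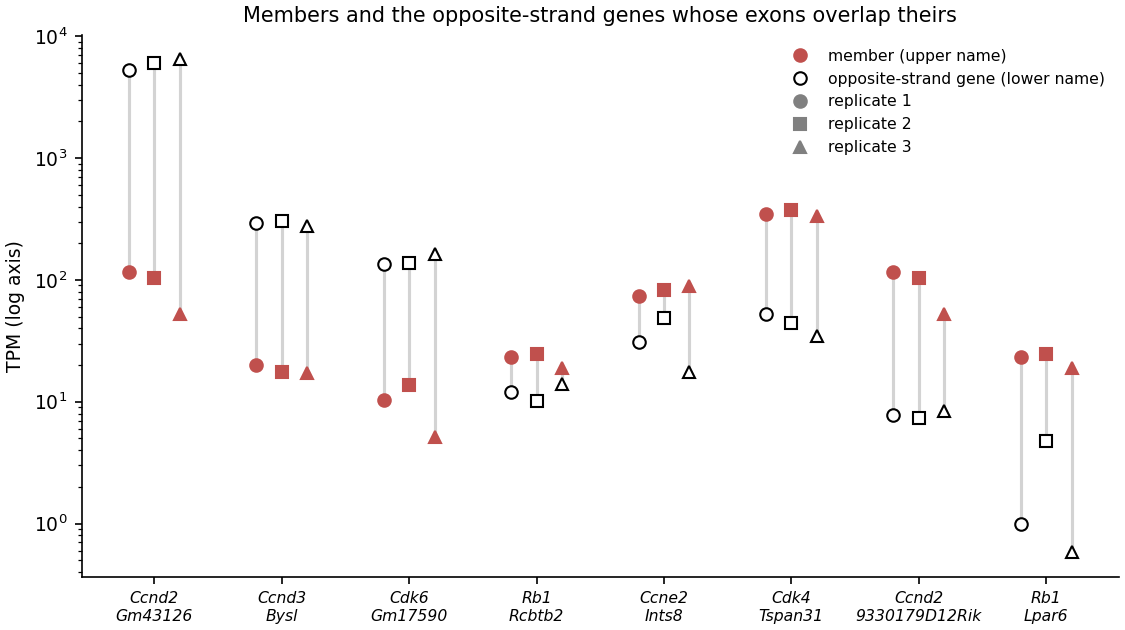
TPM on a log axis of each overlapped member (red) and of the opposite-strand gene whose exons meet its own (open symbols), joined within each library. Gm43126, Bysl and Gm17590 lie above their members in all 3 libraries, and the other 5 opposite genes lie below.

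The inhibitors were low beside Cdk4. In mean TPM, however, Cdkn1a, Cdkn1b and Cdkn2c stood above 77.9%, 62.3% and 54.6% of coding genes. Cdkn1a, a p53 target that also rises on T cell activation, is a clear gene on the plus strand of chromosome 17 from 29090979 to 29100722. It had 82, 30 and 32 counts, or 16.4, 10.6 and 9.05 TPM. Cdkn1b, the inhibitor of resting T cells, is clear as well and lies on the plus strand of chromosome 6 from 134920401 to 134925513. It had 37, 19 and 19 counts, or 3.61, 3.27 and 2.63 TPM. The values of these paralogs did not overlap, with Cdkn1a the higher in each library. The log2 ratio of Cdkn1b to Cdkn1a was -1.89 ± 0.26 (SD, n = 3; below 0 in 3 of 3 libraries, exact sign-flip permutation p = 0.25, adjusted p = 0.292), and -1.18 ± 0.26 with main transcript lengths. Both genes are clear.

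Cdkn2c, the INK4 inhibitor p18, on the minus strand of chromosome 4 from 109660876 to 109667189, had 13, 1 and 3 counts, or 2.15, 0.292 and 0.702 TPM. The exact 95% Poisson intervals were 1.14 to 3.67, 0.00739 to 1.63 and 0.145 to 2.05 TPM. These intervals cover counting error only. Replicate 1 was the highest. The length-scaled ratio of Cdkn1b to Cdkn2c was 1.68 (exact counting interval 0.872 to 3.44) in replicate 1, 11.2 (1.78 to 466) in replicate 2 and 3.74 (1.10 to 19.7) in replicate 3. Over the summed counts it was 2.60 (1.52 to 4.70). The mean log2 ratio was 2.05 ± 1.38 (SD, n = 3; above 0 in 3 of 3 libraries, exact sign-flip permutation p = 0.25, adjusted p = 0.292), a value limited by the 17 counts of Cdkn2c. It was 2.69 without replicate 1 and 1.32 without replicate 2.

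Cdk4 and Cdk6 together exceeded the 3 inhibitors together by 16.1, 27.5 and 27.7 times, a mean log2 ratio of 4.53 ± 0.45 (SD, n = 3; above 0 in 3 of 3 libraries, exact sign-flip permutation p = 0.25, adjusted p = 0.292). Most of the kinase sum was Cdk4 (346, 375 and 338 TPM). Cdk6 alone (10.4, 13.7 and 5.13 TPM) lay below Cdkn1a and Cdkn1b together (19.97, 13.9 and 11.7 TPM) in each library. With main transcript lengths the mean of Cdk6 was 55.2 TPM, above those of Cdkn1a (13.9) and Cdkn1b (6.03). Both kinases are overlapped and all 3 inhibitors are clear. With TPM recomputed over clear genes alone, which lie on a larger scale, Ccne1 had 51.2 TPM ± 5.68, Cdkn1a 46.8 ± 8.25, Cdkn1b 12.6 ± 1.77 and Cdkn2c 3.95 ± 2.93 (SD, n = 3). On that scale they stood above 84.1%, 83.1%, 68.7% and 60.6% of clear coding genes. All 4 then reached 1 TPM in every library, against 3 of them before, Cdkn2c doing so in replicate 2 with 1 count (1.03 TPM). The share of all clear coding genes that did so on this scale was not computed.

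Rb1, the target of the kinases, lies on the minus strand of chromosome 14 from 73183673 to 73325822. It had 315, 190 and 180 counts, or 23.2, 24.8 and 18.8 TPM, and was thus even between libraries. Rcbtb2 overlaps 488 bases of Rb1 exons, 105 of them coding, and had 12.01, 10.2 and 14.0 TPM. Lpar6, a receptor gene inside an Rb1 intron whose exon meets 408 bases of Rb1 exon outside the coding sequence, had 12, 33 and 5 counts. Both were below Rb1 in each library.

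In order of mean TPM the members were Cdk4, Ccnd2, Ccne2, Rb1, Ccnd3, Ccne1, Cdkn1a, Cdk6, Cdkn1b and Cdkn2c. Of the 9 neighbouring pairs, 7 had a mean log2 ratio above its SD and the same sign in 3 of 3 libraries. The 2 that did not differ beyond their spread were Ccnd2 and Ccne2 (0.07 ± 0.75) and Cdkn1a and Cdk6 (0.37 ± 0.65). The step from Ccne1 to Cdkn1a was small but of 1 sign, at 0.14 ± 0.12. With main transcript lengths Ccnd3 moved up to rank 4 (80.3 TPM ± 6.57) and Cdk6 to rank 5 (55.2 ± 24.6), while Cdk4, Ccnd2 and Ccne2 stayed the highest. Cdkn1a, Cdkn1b and Cdkn2c were then the lowest. By these lengths 6 of the 9 neighbouring pairs differed beyond their spread.

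Replicate 3 had the lowest TPM of 8 of the 10 members (all but Ccne2 and Cdkn2c), against 69.5% of coding genes with counts in every library. The share is near that of all genes. Over 9932 coding genes with a mean of at least 1 TPM, the median deviation from the mean log2(TPM + 1) of the gene was 0.32, 0.11 and -0.41 in replicates 1, 2 and 3, and over the members it was 0.16, 0.04 and -0.21. On library sizes scaled by trimmed mean of M-values (TMM), which reduces such a shift, 2 members were lowest in replicate 3, against 45.5% of coding genes. They were Ccnd2 (49.5, 48.5 and 34.7 FPKM) and Cdk6 (4.41, 6.45 and 3.40 FPKM). Another 5 members were then highest in replicate 3, and the share of all coding genes highest there was not computed. Of these 5 members 4 are overlapped, as are 6 of all 10 members. The 4 are Cdk4 (147, 176 and 224 FPKM), Ccne2 (31.1, 39.1 and 59.3), Ccnd3 (8.52, 8.23 and 11.5) and Rb1 (9.89, 11.6 and 12.5). The other is the clear gene Cdkn1b (1.53, 1.54 and 1.74 FPKM). The 3 remaining clear members were highest in replicate 1 and lowest in replicate 2, Ccne1 with 7.09, 5.95 and 6.58 FPKM, Cdkn1a with 6.96, 4.97 and 6.00, and Cdkn2c with 0.914, 0.137 and 0.466. The part of the overlap in these differences was not tested.

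**Figure D4:**
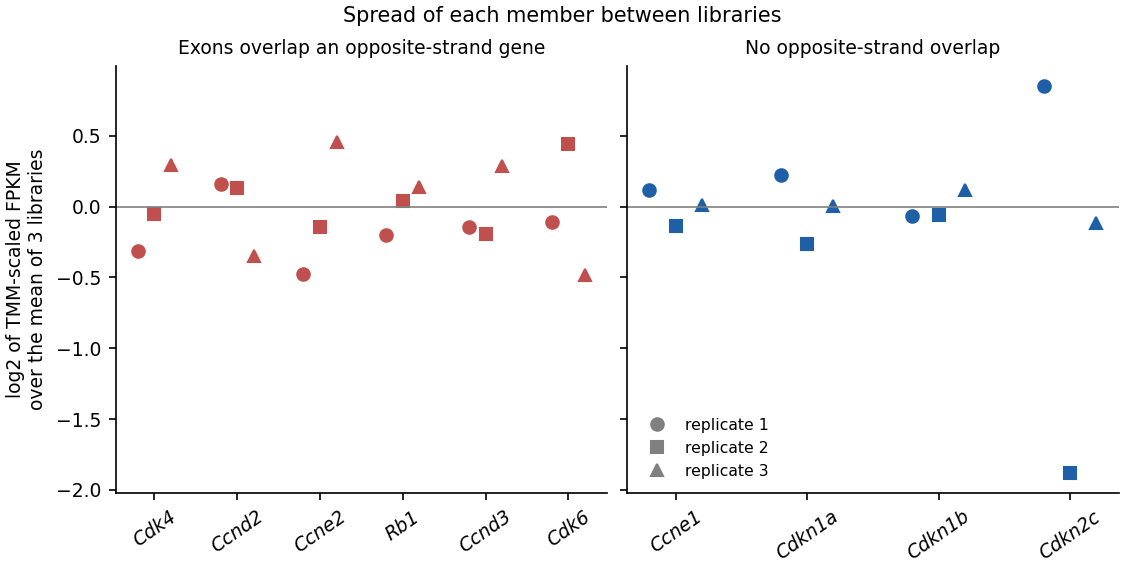
log2 of the TMM-scaled FPKM of each member in each library over its mean of 3 libraries, with overlapped members on the left and clear members on the right. Cdk4, Ccne2, Ccnd3, Rb1 and Cdkn1b are highest in replicate 3, Ccnd2 and Cdk6 are lowest there, and Cdkn2c, with 17 counts in all, spreads the most.

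The edgeR biological coefficient of variation was 0.282 to 0.346 for the 9 members that passed the filter on low counts, Cdkn2c being left out. The common value over 9466 genes was 0.312. Of the 9 members, 3 (Ccne1, Cdkn1a and Cdkn1b) were above the median gene, a mark that 50.0% of genes exceed. With 3 libraries these values are drawn strongly toward the common trend, so the members cannot be ranked by them.

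The other genes of G1 and S phase entry give the setting. Of 57 listed names 56 were found (Skp1 stands in the tables under its older name Skp1a), and 49 of these genes were detected, against 39.8% of coding genes. Their median was 13.6 TPM, both over all 56 and over the 36 clear ones. All 7 other cyclins and kinases were detected, led by Ccna2, the cyclin of S phase (205 TPM ± 44.1; SD, n = 3), and Ccnh, the partner of Cdk7 (57.9 ± 22.2). The lowest were Mnat1 (9.41 ± 3.13) and Ccnd1, the third D-type cyclin (4.04 ± 1.43). Ccnd1, which lymphocytes use little, thus had a lower mean than Ccnd2 and Ccnd3.

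Of the 4 other inhibitors, 1 was detected, Cdkn2d (p19), at 3.59 TPM ± 0.772. Cdkn2a and Cdkn2b had 0 counts in each of the 3, and counting error alone leaves room for 2.01 and 1.69 TPM. Cdkn1c (p57) had 2, 0 and 1 counts. With the members, no inhibitor of either family had a higher mean TPM than Cdkn1a.

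Of the 7 other pocket protein and MuvB genes, which form the repressor complex of resting cells, 6 were detected. Rbbp4 (37.6 TPM ± 17.1; SD, n = 3) and Lin37 (12.6 ± 1.13) were highest, and Lin54 (4.40 ± 2.08) and Lin52 (2.23 ± 2.73), the undetected one, were lowest. Of the 10 E2F and DP factor genes, 7 were detected. E2f5 (118 ± 51.1), an overlapped gene, and Tfdp1 (80.6 ± 25.4) led, and Tfdp2 (0.770 ± 0.323) and E2f7 (0.509 ± 0.239) were lowest.

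All 10 ubiquitin ligase genes, which set the lifetime of G1 proteins, were detected. Ddb1 (107 TPM ± 41.5; SD, n = 3) and Skp1a (101 ± 42.1) were highest, and Fbxo4 (5.31 ± 2.30) and Skp2 (2.62 ± 1.01), the receptor that targets p27 for destruction, were lowest. The 10 upstream regulators were detected as well. Myc, an activator of Ccnd2 and Cdk4, had 204 ± 46.2 and Trp53 40.5 ± 12.5, and Klf2 (6.42 ± 0.999) and Tob1 (2.01 ± 0.341) were lowest. Klf2, Tob1 and Btg1 are all known for a role in T cell quiescence, and Btg1 had 26.8 TPM ± 12.1, the third highest of the list (it was named after its value was seen). The 8 E2F targets of S phase entry were all detected, from Pcna (227 ± 99.2) and Mcm2 (73.9 ± 22.9) to Cdc6 (17.3 ± 7.23) and Mybl2 (6.35 ± 1.98).

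**Figure D5:**
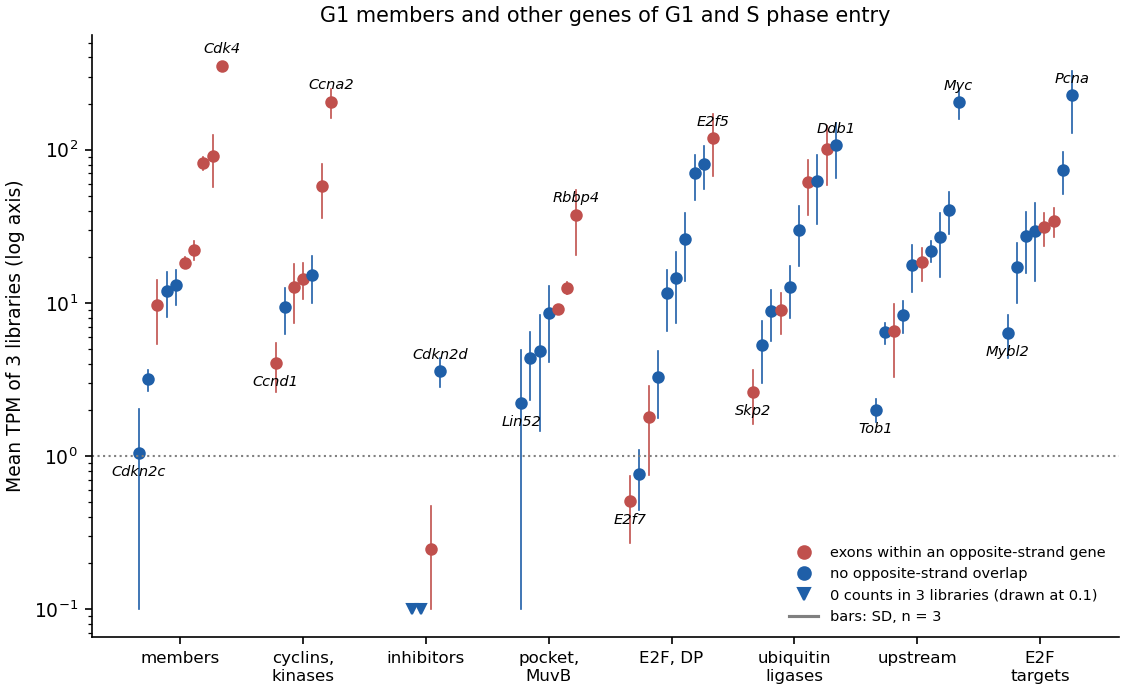
Mean TPM (log axis, bars are the SD of 3 libraries) of the 10 members and of 56 other genes by role, with the highest and, where above 0, the lowest of each role named; red marks genes with exons inside an opposite-strand gene, blue clear genes, triangles genes with 0 counts, and bars stop at 0.1 TPM. The highest other inhibitor, Cdkn2d, has 3.59 TPM, while each other role holds a gene at or above 37.6 TPM.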

How the data were processed

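Total RNA-seq of 3 T-helper 1 samples was analysed; the labels' library protocol is named for poly(A) RNA. The authors deposited a raw count for each gene. Per the file headers, featureCounts (v1.4.6-p4) counted read pairs, both ends mapped, in strand mode 1 against the exons of the GENCODE vM13 annotation (mm10). The sources used here give neither the kit's strandedness nor the read length. Exon lengths were deposited beside the counts. TPM and CPM were computed here from both. Of 50600 identifiers 50376 were named from GENCODE vM21, and overlaps were found from the deposited exon coordinates.

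All members, their overlapping genes and, of each role in the pathway list, the 2 highest, the 2 lowest and those at 0 are named; Xist and Y-linked genes were added later. Members and lists were chosen with earlier results of these data known. Where 0 counts were seen, the upper limit was set at 3; log deviations from the mean use a pseudocount of 1, ratios none, and intervals are exact at 95%. The edgeR dispersion used TMM, filterByExpr and an intercept alone; it was tested on simulated data. Ratios used the two-sided exact sign-flip permutation test with Benjamini-Hochberg adjustment over 7. The comparison over 165 noncoding genes (at least 300 exon bases and 30 counts in a pair), main transcript lengths and the alternatives of the order were chosen after seeing the data. Software was edgeR 4.0.16 under R 4.3.3, with SciPy 1.17.1 under Python 3.11.15; DESeq2 1.42.0 served as an alternative.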

Additional observations from a re-analysis of the deposited data

How the results depend on the processing

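The 7 ratios kept their sign under every alternative run, except that the D to E cyclin ratio turned from 0.14 to -0.0903 without replicate 1 (-0.0903 to 0.467 over the libraries left out). A ratio with the same sign in all 3 libraries must keep it in the median, in summed counts and with a library left out. For every ratio but D to E cyclins, those runs are therefore no check of the sign. None could pass a threshold with 3 libraries. With a library left out, the log2 ratios were 2.06 to 2.55 for Ccnd2 to Ccnd3, -2.94 to -2.42 for Ccne1 to Ccne2, 4.92 to 5.55 for Cdk4 to Cdk6, -1.98 to -1.74 for Cdkn1b to Cdkn1a, 1.32 to 2.69 for Cdkn1b to Cdkn2c and 4.39 to 4.79 for kinases to inhibitors. Member levels then moved by less than 1 SD, which with 3 libraries holds for any gene and is no check. They moved by less than 1.5 times except for Cdkn2c, which had 0.497 TPM without replicate 1. Between 8 and 10 members and between 38 and 52 pathway genes were detected over all thresholds and libraries left out. Levels follow their scale, and these changes come from the scale's own construction. In CPM, not scaled by length, Ccnd2 had 426, Ccnd3 81.8, Ccne1 17.5, Ccne2 147, Cdk4 585, Cdk6 68.2, Cdkn1b 7.30 and Rb1 68.0. In FPKM on TMM-scaled library sizes the levels were 44.2 for Ccnd2, 9.42 for Ccnd3, 6.54 for Ccne1, 43.2 for Ccne2, 182 for Cdk4, 4.76 for Cdk6, 5.98 for Cdkn1a, 1.60 for Cdkn1b and 11.3 for Rb1. In TPM over coding genes outside the mitochondrial genome they were 196 for Ccnd2, 41.0 for Ccnd3, 28.7 for Ccne1, 187 for Ccne2, 793 for Cdk4, 21.1 for Cdk6, 26.2 for Cdkn1a, 7.01 for Cdkn1b, 2.22 for Cdkn2c and 49.5 for Rb1. In TPM over clear genes they were 51.2 for Ccne1, 46.8 for Cdkn1a, 12.6 for Cdkn1b and 3.95 for Cdkn2c. With main transcript lengths, chosen after seeing the data, they were 135 for Ccnd2, 80.3 for Ccnd3, 17.4 for Ccne1, 98.5 for Ccne2, 558 for Cdk4, 55.2 for Cdk6, 6.03 for Cdkn1b, 2.54 for Cdkn2c and 28.8 for Rb1. The median coefficient of variation of the members was 0.297, and 0.211 to 0.335 with a library left out, the lowest without replicate 3. No paired analysis was possible because there is 1 group. Depth limits Cdkn2c most, with 17 counts in all.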
